A study of Homo sapiens with 6 samples.

Results

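The 10 genes described here detect viral RNA or act on it, and they were followed in 12Z cells, an established epithelial line derived from human endometriosis, after knockdown of the long non-coding RNA LINC01133. The genes were chosen by name and role, with earlier results of these data known: the sensors RIGI, IFIH1, DHX58, TLR3, EIF2AK2 and OAS1, and the effectors IFIT1, IFIT2, IFIT3 and IFIT5. They are 10 of the 60660 genes listed in the count files, and all 10 were among the 15155 genes with enough counts to be tested. Polyadenylated RNA was sequenced from 3 control libraries and 3 knockdown libraries. Both groups were 12Z cells lysed 72 h after a lipid transfection, the control with a non-targeting siRNA and the knockdown with siRNA LINC01133a at 10 nM. The dose of the control siRNA was not stated separately. The libraries were described as biological replicates of a single cell line, each group received only 1 siRNA sequence, and no untransfected cells were among the samples. A difference between the groups is therefore a difference between 2 transfected duplex RNAs in the same line, and an effect of the loss of LINC01133 and another effect of siRNA LINC01133a cannot be told apart.

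Cells recognise double-stranded or otherwise foreign RNA with receptors in the cytosol and in endosomes. RIG-I (from RIGI) and MDA5 (from IFIH1) are cytosolic helicases that signal through the mitochondrial adaptor MAVS. LGP2 (from DHX58) belongs to the same helicase family but lacks the signalling domains and modulates the other members. TLR3 binds double-stranded RNA in endosomes and signals through TICAM1. These routes lead to the transcription of interferon genes. PKR (from EIF2AK2) is a kinase that halts translation by phosphorylating eIF2alpha when it binds double-stranded RNA, and OAS1 makes oligoadenylates when it binds such RNA. The IFIT proteins bind foreign RNA and restrain its translation. Genes of this system are themselves induced by interferon through factors such as STAT2 and IRF9, which bind a DNA element called the ISRE in their promoters.

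The sequences of the siRNA strands are shown because the duplex is itself a small RNA, and because its seed may pair with other transcripts. They were read from the list of oligonucleotides of the study, and the capitals mark positions 2 to 8 of each strand, the seed.
LINC01133a guide: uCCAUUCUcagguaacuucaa
LINC01133a passenger: gAAGUUACcugagaauggatt

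The promoters of the 10 genes were examined for the ISRE core, 2 copies of GAAA parted by 1 or 2 bases, because genes induced by interferon commonly carry it. The letters searched were GAAANNGAAA and GAAANGAAA, with TTTCNNTTTC and TTTCNTTTC on the opposite strand, in windows from 250 bases before to 50 bases after each RefSeq start site (build GRCh38.p14). RefSeq promoter windows matched 8 of the 10 genes, and DHX58 and IFIT2 had no entry. All 9 windows of these 8 genes held the core, against 6.4% of all 35116 promoter windows (2246 windows). The spacing of 2 bases occurred in 3.57% of all windows and that of 1 base in 3.12%. One stretch per gene, or 2 for IFIT3, which has 2 start sites, is printed 5′ to 3′ on the strand of the gene, with the core in capitals.
RIGI: ggtgcggaggGAAACGAAActagcccgagg
IFIH1: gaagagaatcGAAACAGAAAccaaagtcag
TLR3: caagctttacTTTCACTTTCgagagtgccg
EIF2AK2: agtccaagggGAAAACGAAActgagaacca
OAS1: cccttctgagGAAACGAAAccaacagcagt
IFIT1: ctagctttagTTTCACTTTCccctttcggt
IFIT3 first start site: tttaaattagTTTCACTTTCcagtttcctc
IFIT3 second start site: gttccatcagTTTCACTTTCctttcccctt
IFIT5: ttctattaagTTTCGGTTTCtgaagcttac

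The RIGI stretch is chr9:32526380-32526409 on the minus strand, and its core began 203 bases before the start site. The IFIH1 stretch is chr2:162318686-162318715 on the minus strand, with the core 21 bases before the start, and 2 further cores that overlap each other lay 159 and 153 bases before it. A core also lay close to the start site in TLR3 (chr4:186069142-186069171, plus strand, 4 bases before), EIF2AK2 (chr2:37156967-37156996, minus strand, 6 bases before) and OAS1 (chr12:112906935-112906964, plus strand, 17 bases before). The IFIT1 stretch is chr10:89392497-89392526 on the plus strand, 116 bases before the start, with another core 103 bases before it. For IFIT3 the 2 stretches are chr10:89327865-89327894 and chr10:89332468-89332497, 122 and 51 bases before their start sites, and the IFIT5 stretch is chr10:89414513-89414542, 45 bases before. IFIT5 held 2 further cores 19 and 4 bases before its start, and IFIT3 held others 156 bases before the first of its start sites and 94 and 45 bases before the second. The same 10 letters, TTTCACTTTC, stood in the stretches of TLR3, IFIT1 and both start sites of IFIT3. RIGI and OAS1 held the core with the 1-base spacing. These are matches of letters, and binding was not measured.

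The libraries held 27742562 to 37551194 counts on genes, so 3 counts, the limit that a count of 0 allows, corresponded to 0.0799 to 0.108 CPM (counts scaled to library size). This limit and the counts behind it cover counting error only. The targeted transcript, LINC01133, fell from 813, 818 and 837 normalized counts in the control libraries to 130, 131 and 138 in the knockdown libraries, 16.1% of control (log2 fold change -2.63, SE 0.0702, edgeR adjusted p = 3.5e-11). Control replicate 2 stood apart from the other control libraries, with a chi-square of counts per degree of freedom of 12.0 and 13.2 against replicates 1 and 3, compared with 3.78 between those and 2.22 to 3.52 between knockdown libraries. The keratin KRT18, one of the epithelial markers, was abundant, with 33923 to 61993 counts in each library, while EPCAM, another such marker, had only 9 to 26, and the fibroblast collagen COL3A1 reached a control mean of 125479 normalized counts. Of 8 epithelial markers 5 were lower in the knockdown and none higher, and their summed level was 200642 to 211646 in control and 128463 to 134359 in knockdown libraries. Of 8 stromal fibroblast markers 5 were lower and none higher, with sums of 236548 to 257640 and 237753 to 241028. Of 11 leukocyte markers 2 were tested, PTPRC at 23.8 ± 4.24 and 20.4 ± 5.33 normalized counts (SD, n = 3), and CD14, which fell from 1707 ± 102 to 863 ± 32.8. The other 9 did not pass the filter, and CD3E, MS4A1, NKG7, CLEC4C and LILRA4 were at 0 in all libraries. Without CD14 the leukocyte markers summed to at most 40.6 in control and 26.2 to 29.5 in knockdown libraries, with it to 1623 to 1835 and 855 to 916. Of 5 endothelial markers 3 were tested, 1 was higher and 1 lower, with sums of 1595 to 1625 and 1115 to 1186. These marker counts stand beside 25.0% of all genes tested that were lower and 23.3% higher, at an edgeR adjusted p under 0.05. The part of these markers in the values of the RNA sensors was not tested.

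Of the 10 genes, 8 were lower after knockdown, 1 was higher and 1 did not pass the test. The largest decrease was that of IFIT1, to 48.0% of control, followed by IFIT2, RIGI and IFIT3 at 66.3% to 72.0%. IFIH1, TLR3, EIF2AK2 and IFIT5 were 83.4% to 88.6% of control, DHX58 was 115%, and OAS1 was not resolved. The 8 lower genes stand beside 25.0% of all genes tested that were lower at an edgeR adjusted p under 0.05 (3783 of 15155 genes), and the 1 higher gene beside 23.3% (3532). IFIT1 and IFIT2 were DE, defined as a fold change over 1.5 and an adjusted p under 0.05, and this held for 6.43% of genes tested in the lower direction (975). The 3 control and 3 knockdown libraries did not overlap for the 8 lower genes, beside 29.0% of all genes, nor for DHX58, beside 28.3% in the higher direction. Without control replicate 2, the library that stood apart, 8 of the 10 genes were lower and 0 higher. In that fit 24.2% of all genes tested were lower and 22.1% higher. The median log2 fold change of the 10 genes was -0.24, against 0.0032 over all genes tested. In such bulk RNA, fewer cells that express a gene and less of its RNA per cell cannot be told apart.

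**Figure D1:**
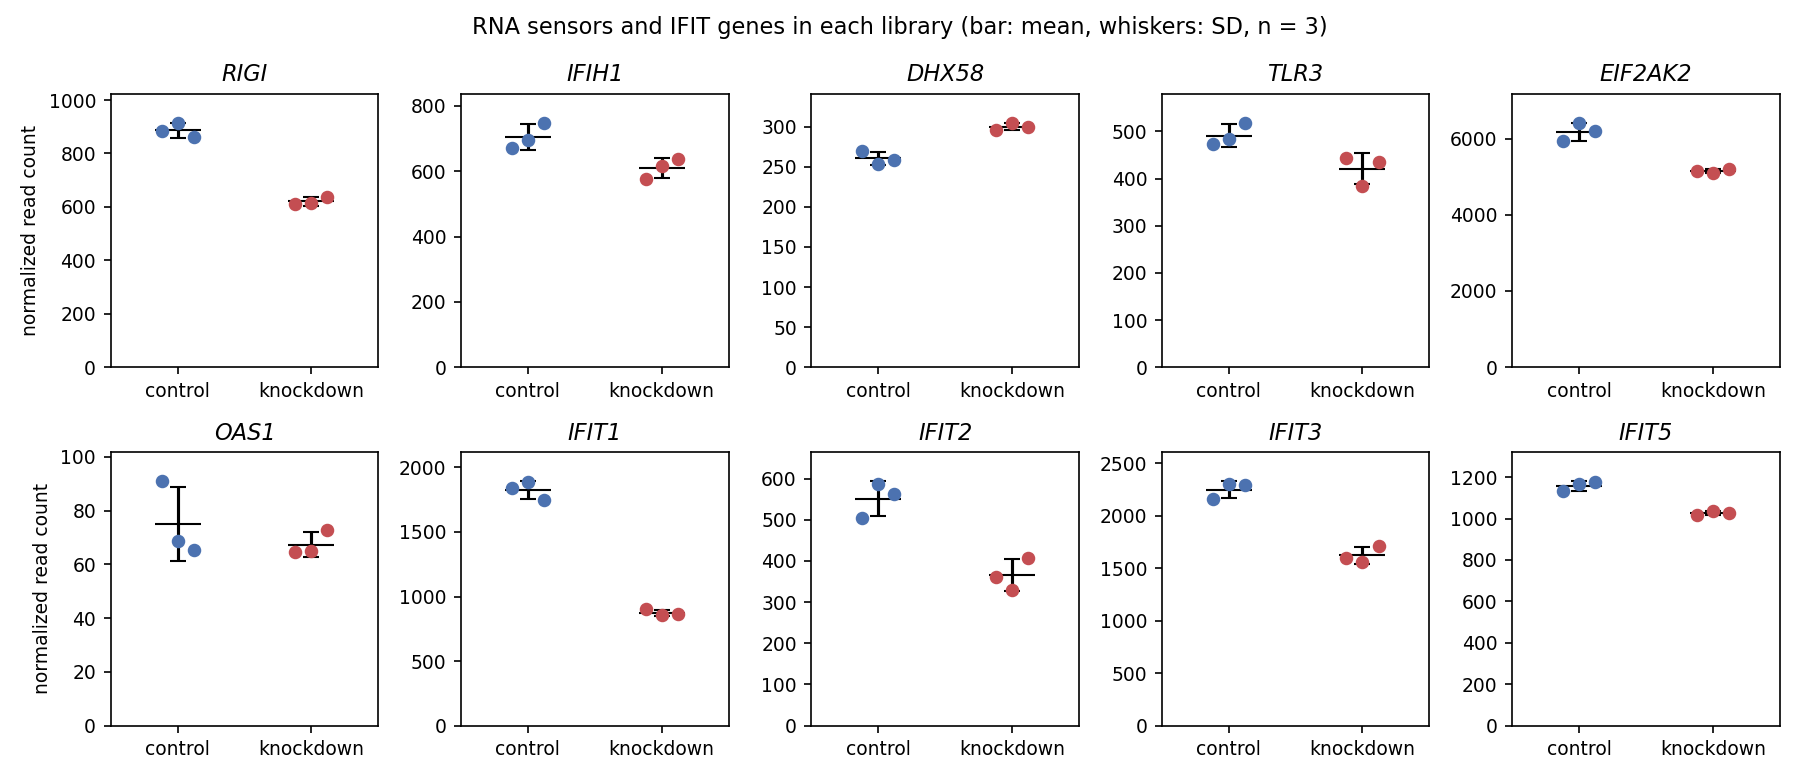
Normalized read counts (vertical axis, from 0, scaled per gene) of the 10 genes in each control library (blue) and knockdown library (red); bars are means and whiskers SD, n = 3 per group. IFIT1 separated the groups most widely, from 1746 to 1883 in control to 857 to 901 in knockdown, whereas the groups overlapped for OAS1.

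Among the cytosolic helicases, RIGI (chr9:32455302-32526208, minus strand, GRCh38) had 882, 915 and 861 normalized counts in control replicates 1 to 3 and 609, 613 and 639 in knockdown replicates 1 to 3. Every knockdown library was below every control library. The mean fell from 886 ± 27.0 to 620 ± 16.0 (SD, n = 3), with a log2 fold change of -0.52 (SE 0.0527, 95% interval -0.63 to -0.40, edgeR adjusted p = 4.0e-06). This decrease was larger than the spread between libraries but below the fold change needed for DE. RIG-I recognises short double-stranded RNA with a triphosphate end.

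IFIH1 (chr2:162267074-162318684, minus strand), whose product MDA5 recognises long double-stranded RNA, had 672, 695 and 748 normalized counts in control and 576, 616 and 638 in knockdown libraries. The groups did not overlap, but the highest knockdown library was close to the lowest control library. The log2 fold change was -0.21 (SE 0.0628, 95% interval -0.35 to -0.076, edgeR adjusted p = 0.0132), from a mean of 705 ± 39.0 to 610 ± 31.0. The call was lost without control replicate 3 (log2 fold change -0.17, adjusted p = 0.058), without knockdown replicate 1 (-0.17, adjusted p = 0.084) and when libraries were scaled by library size alone (-0.15, adjusted p = 0.073).

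DHX58 (chr17:42101404-42112714, minus strand) was the only one of the 10 genes that was higher. Its normalized counts were 270, 253 and 259 in control and 296, 305 and 300 in knockdown libraries. The groups did not overlap and each was narrow, with means of 261 ± 8.30 and 300.1 ± 4.56. The log2 fold change was 0.20 (SE 0.0775, 95% interval 0.033 to 0.37), and the edgeR adjusted p of 0.0470 lay just under the threshold. The call was lost on leaving out any 1 of the 6 libraries, with adjusted p from 0.0524 to 0.120, and with DESeq2, with an adjusted p of 0.172. The direction was kept in each of these.

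TLR3 (chr4:186068911-186088073, plus strand), the endosomal receptor, had 472, 483 and 518 normalized counts in control and 443, 385 and 436 in knockdown libraries. The groups did not overlap, and knockdown replicate 2 was the lowest of the 6. The log2 fold change was -0.22 (SE 0.0741, 95% interval -0.38 to -0.061, edgeR adjusted p = 0.0251), from 491 ± 23.9 to 421 ± 32.0. The call was lost without control replicate 3 (-0.18, adjusted p = 0.0949), without knockdown replicate 2 (-0.16, adjusted p = 0.136), with library size alone (-0.16, adjusted p = 0.0987) and with DESeq2 (-0.23, adjusted p = 0.0554).

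EIF2AK2 (chr2:37099210-37157522, minus strand), which encodes the kinase PKR, had the highest counts of the 10 genes, 5924, 6401 and 6197 in control and 5161, 5095 and 5189 in knockdown libraries. The knockdown libraries lay close together and all below the control libraries. The mean fell from 6174 ± 239 to 5149 ± 48.4, a log2 fold change of -0.26 (SE 0.0383, 95% interval -0.35 to -0.18, edgeR adjusted p = 9.0e-05). It was a precisely measured change of modest size.

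OAS1 (chr12:112905856-112933219, plus strand) was the least abundant of the sensors, with 90.9, 68.7 and 65.3 normalized counts in control and 64.4, 65.1 and 72.6 in knockdown libraries. The groups overlapped, and control replicate 1 was above all other libraries. The log2 fold change was -0.17 (SE 0.162, 95% interval -0.52 to 0.18, edgeR adjusted p = 0.414). Without control replicate 1 it was 0.0028. At this depth neither a moderate decrease nor a small increase of OAS1 was excluded by the interval.

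The 4 IFIT genes lie in a cluster on chromosome 10, and all 4 were lower after knockdown, with a median log2 fold change of -0.53. IFIT1 (chr10:89392546-89406487, plus strand), whose product binds the ends of RNAs that lack the cap methylation of the cell's own mRNA, had 1837, 1883 and 1746 normalized counts in control and 901, 857 and 863 in knockdown libraries. The groups were far apart, and the highest knockdown library was well below the lowest control library. The mean fell from 1822 ± 69.9 to 874 ± 23.7, a log2 fold change of -1.06 (SE 0.0464, 95% interval -1.16 to -0.96, edgeR adjusted p = 2.1e-09). Over 13 other settings and left-out libraries its log2 fold change ranged from -1.09 to -1.0, and it was DE in all 13.

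IFIT2 (chr10:89283694-89309271, plus strand) had 506, 587 and 563 normalized counts in control and 362, 330.2 and 406 in knockdown libraries. The groups did not overlap, although both varied more than those of the other IFIT genes. The mean fell from 552 ± 41.8 to 366 ± 38.2, a log2 fold change of -0.59 (SE 0.0848, 95% interval -0.78 to -0.41, edgeR adjusted p = 7.3e-05). This was barely past the DE limit of 0.585 on the log2 scale. IFIT2 was below that limit with library size alone (-0.53) and without control replicate 2 (-0.55), control replicate 3 (-0.58), knockdown replicate 1 (-0.58) or knockdown replicate 2 (-0.52), with an adjusted p under 0.05 each time.

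IFIT3 (chr10:89327307-89377473, plus strand), whose product forms complexes with IFIT1 and IFIT2, had 2160, 2298 and 2292 normalized counts in control and 1594, 1560 and 1711 in knockdown libraries. All knockdown libraries were below all control libraries by a wide margin. The mean fell from 2250 ± 77.9 to 1622 ± 79.0, a log2 fold change of -0.47 (SE 0.0460, 95% interval -0.57 to -0.37, edgeR adjusted p = 2.5e-06).

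IFIT5 (chr10:89414568-89421605, plus strand), which binds RNAs with phosphate at the leading end, changed least within the cluster. Its normalized counts were 1132, 1165 and 1175 in control and 1016, 1034 and 1026 in knockdown libraries. The groups were the tightest of the 10 genes, with coefficients of variation of 1.94% and 0.869%, and did not overlap. The mean fell from 1157 ± 22.4 to 1025 ± 8.91, a log2 fold change of -0.17 (SE 0.0439, 95% interval -0.27 to -0.080, edgeR adjusted p = 0.0051). With library size alone it was -0.11, with an adjusted p of 0.0526.

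**Figure D2:**
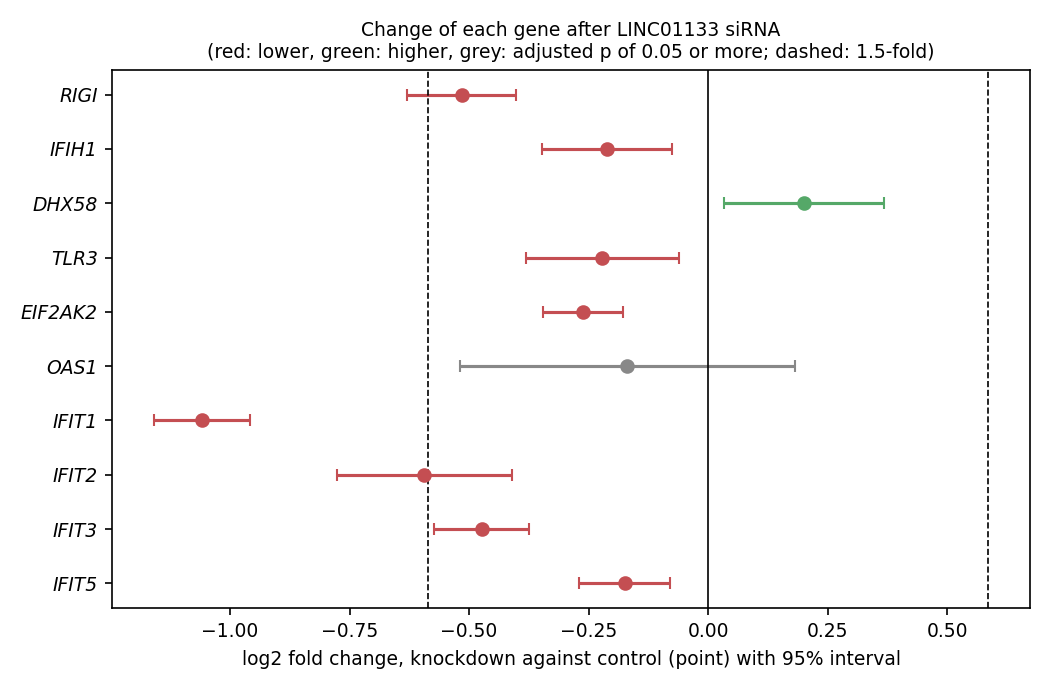
Log2 fold change of each of the 10 genes, knockdown against control (horizontal axis), with 95% intervals from edgeR, n = 3 libraries per group; red is lower, green higher, grey not called, and dashed lines mark a fold change of 1.5. IFIT1 lies apart at -1.06, DHX58 is the only point to the right of 0, and the interval of OAS1 spans 0.

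The log2 fold changes within the IFIT cluster ran from -1.06 for IFIT1 to -0.17 for IFIT5. Each library gave a ratio of normalized counts for each of the 6 pairs of IFIT genes. The ratios of control and knockdown libraries did not overlap in 5 of the 6 pairs. The pairs share genes, so they are not independent. How often ratios of other gene pairs do not overlap was not determined. For single genes the shares were 29.0% lower and 28.3% higher. The ratio of IFIT1 to IFIT5 was 1.62, 1.62 and 1.49 in control and 0.887, 0.829 and 0.842 in knockdown libraries, a log2 change of -0.89. The normalized count of IFIT1 was thus above that of IFIT5 in every control library and below it in every knockdown library. The ratio of IFIT1 to IFIT3 was 0.851, 0.820 and 0.762 in control and 0.565, 0.549 and 0.505 in knockdown libraries, a log2 change of -0.59. The ratio of IFIT1 to IFIT2 was 3.63, 3.21 and 3.10 in control and 2.49, 2.60 and 2.13 in knockdown libraries, so IFIT1 also fell relative to the other DE gene. The ratios of IFIT2 and IFIT3 to IFIT5 were also lower, with log2 changes of -0.42 and -0.30. The ratio of IFIT2 to IFIT3 was 0.234, 0.255 and 0.245 in control and 0.227, 0.212 and 0.237 in knockdown libraries, and these overlapped. With 3 libraries against 3 the smallest p that the two-sided exact permutation test allows is 0.1, which the 5 pairs without overlap reached, with an adjusted p of 0.12 over the 6 pairs. IFIT2 to IFIT3 had an exact permutation p of 0.2 and an adjusted p of 0.2.

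**Figure D3:**
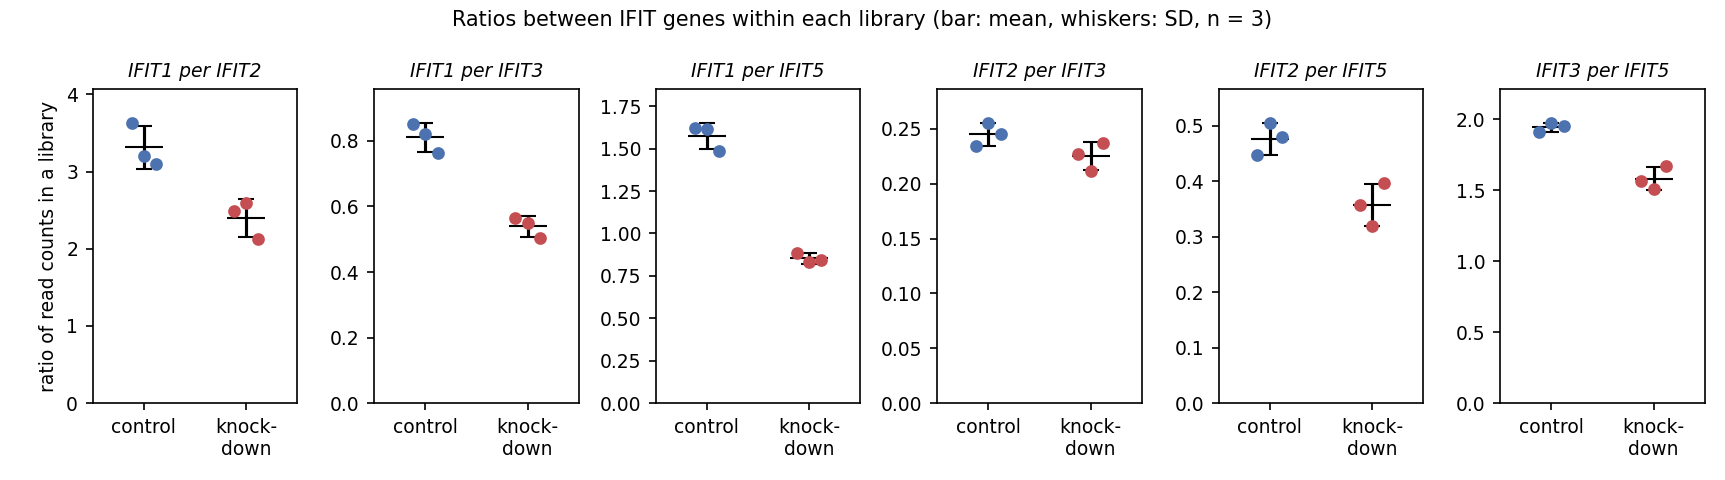
Ratio of normalized read counts within each library for the 6 pairs of IFIT genes (vertical axes from 0), control libraries in blue and knockdown libraries in red, with means and SD, n = 3 per group. The ratios of IFIT1 to the other genes are lower in every knockdown library than in any control library, and those of IFIT2 to IFIT3 overlap.

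The IFIT genes share their stretch of chromosome with LIPA, a lysosomal lipase gene on the opposite strand, whose annotated transcripts span IFIT1, IFIT2 and IFIT3 in GENCODE v44. LIPA had 3857, 4053 and 3752 normalized counts in control and 4226, 4322 and 4144 in knockdown libraries, a log2 fold change of 0.12 (SE 0.0398, edgeR adjusted p = 0.0214). It was thus higher while the IFIT genes were lower. Counts on the strand opposite to the gene were at most 16 in any library for any IFIT gene, and at most 59 for any of the 10 genes, for EIF2AK2. Reads on exons of 2 genes of the same strand are assigned to neither. In GENCODE v44 IFIT2 shares 12.1% of its exonic bases with an unnamed gene of its strand that had 2 to 11 counts per library, so part of the reads of IFIT2 may be missing from its counts, level and ratios. IFIT3 contains the pseudogene IFIT6P, which was at 0 in all libraries and shares 0 of its exonic bases. RIGI shares 43.2% of its exonic bases with an unnamed gene that the count files do not list. The IFIT genes are related in sequence, and reads that mapped to more than 1 place were not counted for any of them.

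Levels were compared between genes as RPKM, counts scaled to library size and to the length of the canonical transcript. In control libraries IFIT3 was highest at 29.1 ± 1.01 RPKM (SD, n = 3), followed by EIF2AK2 at 19.1 ± 0.741, IFIT1 at 13.1 ± 0.502 and IFIT5 at 8.88 ± 0.172. IFIT3 exceeded 83.0% of the genes tested on this scale. IFIH1 at 6.08 ± 0.337 and RIGI at 5.92 ± 0.180 came next, and their libraries overlapped, so their order was not resolved. IFIT2 at 5.02 ± 0.381, DHX58 at 3.11 ± 0.0990, TLR3 at 2.52 ± 0.123 and OAS1 at 1.42 ± 0.263 completed the order, and all other neighbours were apart in the control libraries. OAS1, the lowest, still exceeded 26.5% of the genes tested.

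After knockdown the order of levels changed within the IFIT cluster. IFIT1, at 6.28 ± 0.170 RPKM, moved below IFIT5, at 7.86 ± 0.0683. DHX58, at 3.58 ± 0.0544, and IFIT2, at 3.33 ± 0.348, overlapped, so their order was not resolved. RIGI fell to 4.14 ± 0.107 while IFIH1 was 5.26 ± 0.267, and these libraries did not overlap. IFIT3 remained highest at 21.0 ± 1.02, before EIF2AK2 at 15.9 ± 0.150, and TLR3 and OAS1 stayed lowest at 2.16 ± 0.164 and 1.28 ± 0.0863. The order depends on the length used. Per length of all annotated exons, EIF2AK2 ranked above IFIT3 in control, and IFIH1 at 4.17 and IFIT2 at 3.94 RPKM ranked above RIGI at 2.65.

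**Figure D4:**
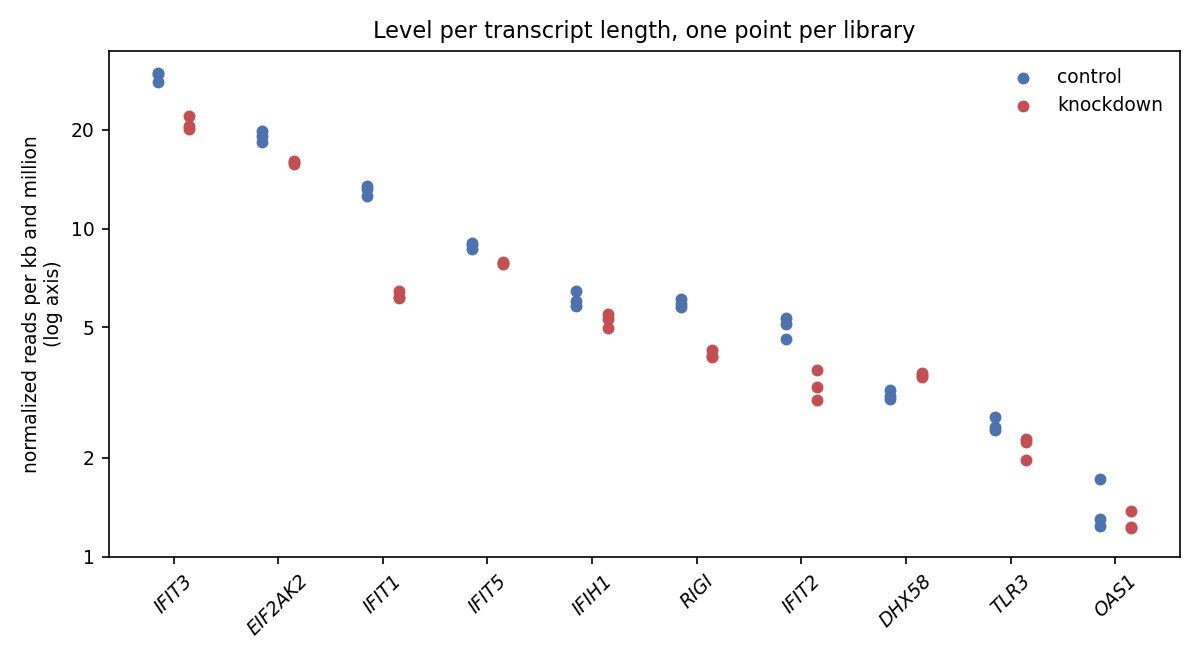
RPKM per canonical transcript (vertical axis, log scale) of the 10 genes in the 3 control libraries (blue) and 3 knockdown libraries (red), ordered by the control mean. IFIT3 leads at 29.1 in control and 21.0 in knockdown, and OAS1 is lowest at 1.42 and 1.28.

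The 3′ UTRs of the 10 genes were searched for sites complementary to the siRNA seeds, since transcripts with such sites can be bound by either strand. The site of the guide seed, AGAATGG, occurred in 15% of 19559 genes with an annotated 3′ UTR, and that of the passenger seed, GTAACTT, in 11.4%. IFIT2 held 1 guide site at position 751 of its 1896-base 3′ UTR, EIF2AK2 held 2 at positions 877 and 7624 of 8063, and IFIT3 held 1. The sites of IFIT2 and EIF2AK2 are shown with the flanking bases, the seed match in capitals.
IFIT2 site: aaagaatgAGAATGGattctgta
EIF2AK2 first site: tcaaaagaAGAATGGattaaaaa
EIF2AK2 second site: ttcctaggAGAATGGctggatta

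Passenger sites occurred once in RIGI and EIF2AK2 and at 2 positions in IFIT5. IFIT1, which fell most, held a site of neither strand, nor did IFIH1, TLR3, DHX58 and OAS1. Thus genes with and without sites were among those that fell, and the part of seed pairing in their changes was not tested.

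The wider pathway was described through 7 lists with 162 genes besides the 10, grouped by role. Of these, 138 were tested, 24 were higher (17.4%) and 48 lower (34.8%) at an edgeR adjusted p under 0.05, beside 23.3% and 25.0% of all genes tested. Scaled by library size alone, 38 were higher (27.5%) and 31 lower (22.5%), beside 31% and 19.4% of all genes. That scaling moves the median of all genes to 0.065 on the log2 scale. The share of lower genes in the lists was above that of all genes with the first scaling and near it with library size alone.

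Of 22 tested sensors and RNA-binding partners beyond the 10 genes, 2 were higher (9.09%), 9 lower (40.9%) and 11 not called. Of all genes tested, 23.3% were higher and 25.0% lower. The median log2 fold change of the list was -0.041. Under scaling by library size alone, 6 were higher and 7 lower, and the median was 0.021. The nucleic acid binding protein LRRFIP1 was DE and fell from 10257 ± 416 to 6788 ± 77.8 normalized counts (log2 fold change -0.60, edgeR adjusted p = 5.9e-08). TRIM25, the ubiquitin ligase that acts on RIG-I, fell by 0.37 on the log2 scale (adjusted p = 4.2e-06). TARBP2 and PRKRA, double-stranded RNA binding proteins that inhibit and activate PKR, rose by 0.49 and 0.18 (adjusted p = 7.4e-05 and 0.0037). The RNA editor ADAR fell by 0.13 (adjusted p = 0.0069). TLR7, TLR8 and ZBP1 were at 0 in all libraries. TLR9 had at most 1 count and NOD2 at most 2.

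Of 23 adaptors, kinases and transcription factors downstream of the sensors, 7 were higher (30.4%), 4 lower (17.4%) and 12 not called. These shares stand beside 23.3% higher and 25.0% lower of all genes tested, and the median was 0.069. When scaled by library size alone, 15 of these genes were higher and 3 lower, beside 31% and 19.4% of all genes. The median was then 0.131, so the counts of this list depend on the scaling. MAVS, the adaptor of RIG-I and MDA5, rose from 4921 ± 121 to 7230 ± 195 normalized counts (log2 fold change 0.56, edgeR adjusted p = 8.6e-08). The direction of this adaptor was thus opposite to that of its 2 sensors. TICAM1, the adaptor of TLR3, rose by 0.24 (adjusted p = 0.0043), and the transcription factors IRF3, IRF7 and IRF5 by 0.33, 0.35 and 0.52 (adjusted p = 1.5e-04, 0.0050 and 0.0052). STING1, the adaptor of DNA sensing, and IRF1 fell by 0.25 and 0.29 (adjusted p = 0.0086 and 0.0061). TBK1, the kinase that phosphorylates IRF3, was not called, at -0.090 on the log2 scale (adjusted p = 0.111).

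Of 28 interferon, receptor and JAK-STAT genes 18 were tested, of which 2 were higher (11.1%), 6 lower (33.3%) and 10 not called. These shares stand beside 23.3% higher and 25.0% lower of all genes tested, and the median was -0.087. The 8 interferon genes IFNB1, IFNA1, IFNA2, IFNK, IFNG, IFNL1, IFNL2 and IFNL3 were at 0 in all 6 libraries, which allows up to 3 counts in each. Reads that mapped to more than 1 place were not counted, and this limit does not cover them. IFNE, the epithelial interferon, had 22 to 37 counts per library and was not called, at -0.30 on the log2 scale (edgeR adjusted p = 0.339). The receptor chains IFNAR1 and IFNAR2 fell by 0.17 and 0.40 on the log2 scale (adjusted p = 0.0014 and 7.2e-04). STAT2 rose from 1639 ± 160 to 2319 ± 92.1 normalized counts, by 0.50 (adjusted p = 1.9e-05), and the kinase TYK2 by 0.46 (adjusted p = 9.3e-06). The inhibitor SOCS3 fell by 0.51 (adjusted p = 8.0e-07). IRF9 was listed at 0 in every library, as was an overlapping gene of its strand that shares 23.9% of its exonic bases in GENCODE v44. The reason for the 0 was not tested, and no level is given for IRF9.

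Of the 6 other genes of the oligoadenylate route 2 were higher and 2 lower (33.3% each), with a median of 0.061. Of all genes tested, 23.3% were higher and 25.0% lower. OAS3 rose by 0.16 on the log2 scale (edgeR adjusted p = 0.0031). PDE12, which degrades oligoadenylates, and ABCE1, an ATPase that recycles ribosomes, fell by 0.16 and 0.37 (adjusted p = 0.0171 and 5.6e-06). OAS2, at 11.0 and 10.8 normalized counts, and OASL were not called, at -0.042 and 0.19 on the log2 scale (adjusted p = 0.939 and 0.586). OAS3 was thus the only one of the OAS genes, OAS1 included, that passed the test.

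Among other interferon-stimulated effectors, 43 of 50 were tested, 6 were higher (14%), 21 lower (48.8%) and 16 not called, with a median of -0.16 (with library size alone 7 higher, 12 lower, or 27.9% beside 19.4% of all genes, and -0.096). IFITM1, which blocks viral entry, was the only one DE in the lower direction, from 149 ± 3.97 to 86.8 ± 8.60 normalized counts (log2 fold change -0.79, edgeR adjusted p = 1.3e-04). The nucleic acid sensor IFI16 fell by 0.54 (adjusted p = 1.1e-07), the GTPase MX1 by 0.32 (adjusted p = 6.2e-04) and the ubiquitin-like ISG15 by 0.34 (adjusted p = 0.0037). RSAD2, which encodes viperin, was DE in the higher direction at low counts, from 12.5 ± 3.92 to 29.0 ± 9.13 (log2 fold change 1.20, adjusted p = 0.0068), and the GTPase GBP2 rose by 0.45 (adjusted p = 3.4e-04). Single effectors thus moved in both directions, but more were lower than higher. Of all genes tested, 25.0% were lower and 23.3% higher.

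Of 13 kinases, substrates and phosphatase subunits around eIF2alpha, the substrate of PKR, 4 were higher (30.8%), 3 lower (23.1%) and 6 not called. These shares are near the 23.3% higher and 25.0% lower of all genes tested, and the median was -0.011. If scaled by library size alone, 5 were higher and 1 lower, and the median was 0.051. EIF2B5 and PPP1R15A, a subunit of the exchange factor and of the eIF2alpha phosphatase, rose by 0.43 and 0.30 (edgeR adjusted p = 7.2e-06 and 1.2e-04). EIF2B1 and EIF2B3 fell by 0.13 and 0.25 (adjusted p = 0.0337 and 0.0027). Of 13 tested attenuators of RNA sensing out of 15, 1 was higher (7.69%), 3 lower (23.1%) and 9 not called, with a median of -0.053. The share of lower attenuators was near that of all genes tested. NLRX1, a mitochondrial inhibitor of MAVS, rose by 0.39 (adjusted p = 2.2e-04). MFN2, another inhibitor of MAVS, fell by 0.34 (adjusted p = 4.1e-06), and TNFAIP3, which encodes A20, was DE, with a log2 fold change of -0.65 (adjusted p = 1.2e-05).

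**Figure D5:**
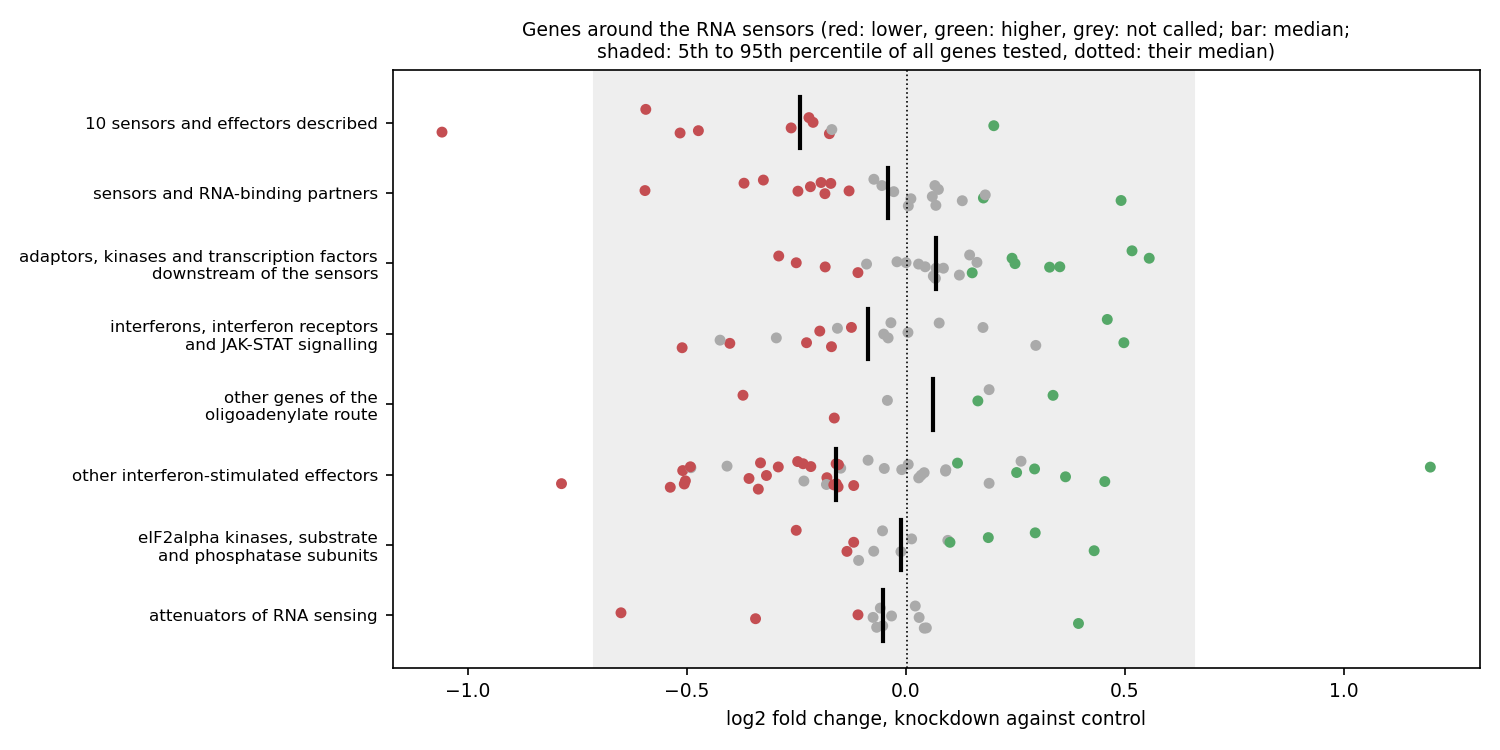
Log2 fold change, knockdown against control (horizontal axis), of the 10 genes and of the tested genes of each of the 7 lists, each point a gene, with red for lower, green for higher and grey for genes not called at an edgeR adjusted p under 0.05; bars are medians, the shading spans the 5th to 95th percentile of all genes tested and the dotted line is their median. The 10 genes have a median of -0.24, the other interferon-stimulated effectors -0.16 and the adaptors, kinases and transcription factors 0.069.

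The genes whose pattern over the 6 libraries was most like that of the IFIT genes were FAM168A, FBXW2, ANKRD33B, SLC35E4 and ESCO1, with a Pearson r of 0.998 to 0.999 to the mean standardized level of the 4 IFIT genes. This is a description over 6 libraries that fall into 2 groups, and 262 of 11169 genes with a mean of at least 100 normalized counts had an r of at least 0.99. The likeness does not mark a change of the same size. FBXW2 had a log2 fold change of -0.13 and ANKRD33B one of -1.02. Among the sensors, r was 0.99 for RIGI and EIF2AK2, 0.896 for IFIH1, 0.869 for TLR3, 0.330 for OAS1 and -0.983 for DHX58.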

How the data were processed

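Poly(A) RNA of 6 libraries was sequenced in pairs. The authors aligned the reads with STAR 2.7.6a to GRCh38.p13 (GENCODE v36) and deposited read counts per gene without normalization; SAMtools 1.10 is also named in the submitters' processing notes. The reverse-strand column was used here, since it held most stranded counts. Counts were filtered with filterByExpr (minimum count 10), scaled by TMM and tested with edgeR 4.0.16 (quasi-likelihood, R 4.3.3; condition as the only term, two-sided), with Benjamini-Hochberg adjustment over 15155 genes. The test was also run on counts simulated with the same dispersion for every gene. That setting holds no library that stands apart, so it does not vouch for the calls made here. Normalized counts are counts divided by the TMM-scaled library size and multiplied by the mean of these scaled sizes. RPKM used the same scaled sizes. Between-gene levels used canonical transcripts of GENCODE v44. Promoters came from RefSeq and 3′ UTRs from GENCODE v44.

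The 10 genes and all lists were chosen with earlier results of these data known. Named were all 10 genes, LINC01133, the 2 highest and 2 lowest called genes of each list, 18 central genes whatever their change, and the 5 genes most like the IFIT genes. IFNE, LIPA, the lowest-count receptors and CD14 were named after their values were seen. KRT18, EPCAM and COL3A1, singled out from the marker lists, were not named by these rules either. Alternatives were DESeq2 1.42.0, other scaling, no filter or a stricter one, unstranded counts, a replicate block, and each library left out. 1 list gene was not matched by symbol. The results of a few of these items are not reported here.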

Additional observations from a re-analysis of the deposited data

How the results depend on the processing

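RIGI, EIF2AK2, IFIT1, IFIT2 and IFIT3 kept their direction and an adjusted p under 0.05 under all 13 alternatives, and LINC01133 ranged from -2.65 to -2.57. With library size alone as scaling, 5 of the 10 genes were lower (beside 19.4% of all genes) and 1 was DE, against 8 and 2, the lists had 38 higher and 31 lower genes, and 61.5% of all calls were in the higher direction, against 48.3%. The 1 higher gene, DHX58, became 0 higher genes with DESeq2 (0.20, adjusted p = 0.172), no filter (0.20, 0.111), unstranded counts (0.20, 0.0505) and the replicate block (0.20, 0.0661). IFIH1 with library size alone was -0.15, TLR3 -0.16 and with DESeq2 -0.23, and IFIT5 with library size alone -0.11.

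With single libraries left out, the number of lower genes ranged from 6 to 8, of higher genes from 0 to 0 and of DE genes from 1 to 2. Higher and lower list genes ranged from 22 to 26 and 36 to 48. Over all genes tested, 20.3% to 24.2% were then lower and 19.3% to 22.1% higher. IFIH1 ranged from -0.25 to -0.17, DHX58 from 0.18 to 0.23, TLR3 from -0.26 to -0.16 and OAS1 from -0.26 to 0.0028, the last without control replicate 1. The cause was not tested.

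Same-numbered libraries did not deviate together (correlations -0.052, 0.0073 and 0.10), and not every library correlated best with its own number. The replicate block therefore pairs by number only. With it 8 of the 10 genes were called, all lower, beside 24.8% of all genes tested that were lower. Apart from DHX58 no call among the 10 genes changed. Depth limits OAS1 most, with 61 to 96 counts per library.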
